A study of Drosophila melanogaster with 2 samples.

Results

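The genes described here encode proteins that shape chromatin at insulators and domain borders of *Drosophila melanogaster*: *Chro*, *Cp190*, *BEAF-32*, *Dref*, *pzg*, *row*, *Trl*, *CTCF*, *su(Hw)* and *Cap-H2*. They are 10 of the 13945 protein-coding genes on the 6 assembled chromosome arms, were listed by name with earlier results of these data known, and all 10 were found in the annotation. The question was where on these genes the protein of CG31388, a zinc finger protein with a zinc-finger-associated domain, was recovered by chromatin immunoprecipitation and sequencing (ChIP-seq). The 1 group studied was mixed-sex whole embryos collected between 0 and 16 hours, from a transgenic line that stably expresses CG31388 fused at its C-terminal end to green fluorescent protein (GFP). An antibody against GFP was used on sonicated chromatin, in 2 libraries, biological replicates 2 and 4. Whole embryos hold many cell types, so a region seen here cannot be placed in any of them, and the labels do not say what drives the transgene. No untagged line and no control list was analysed here.

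Architectural proteins sit at sites where chromatin domains of the fly genome meet and at promoters of broadly used genes. Some bind DNA directly: BEAF-32 and Dref recognise related words around CGATA, the GAGA factor encoded by *Trl* binds GA repeats, and CTCF and su(Hw) have their own long sites. Others are brought in by proteins. Cp190 is a shared cofactor of several insulator proteins, and Chro works with the *pzg* product (also named Z4) in the interbands of polytene chromosomes. The *row* product, a zinc finger protein, is found with woc and HP1c. Cap-H2 is a subunit of condensin II, a ring complex that compacts chromosomes and in flies keeps homologous chromosomes apart.

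Most of these genes had a peak of the tagged protein at the promoter. A reproducible peak, one of the 1872 that the authors kept after comparing the replicates, had its summit within 500 bp of a transcription start site (TSS) in 8 of these 10, compared with 10.1% of coding genes in general. The exceptions were *CTCF* and *su(Hw)*. Taking each library's own 1872 strongest regions instead, the count was 4 in replicate 2 and 6 in replicate 4, beside 9.88% and 9.91% of coding genes. It was 4 among the 936 strongest reproducible peaks, beside 5.51% of coding genes. A candidate region of any strength, from the 28750 that the authors called on the pooled libraries and label as peaks and background, lay at the promoter of 9 of the 10 genes, against 46.5% of coding genes. Counting gene bodies too, the same 8 genes had a peak, against 13% of coding genes. Together the 10 genes held 26 candidate regions, 11 of them reproducible peaks, 9 at promoters and 2 in gene bodies. The same 8 genes were already known as occupied from earlier results of these data when the 10 were listed, so the count largely restates that choice, and these shares are a description with no test.

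The peaks covered nearly the whole range of strength. Signal here is the enrichment value that the authors deposited for each region, on a scale that is not stated, and reproducible peaks ran from 53.8 to 771 with a median of 77.8. The strongest candidate outside the list of peaks also had a signal of 53.8, so the list was in effect a cut on pooled signal. A place on it does not by itself show that both libraries agreed at a site. The strongest promoter peak of each of the 8 genes had a median signal of 75.5, against 81.8 over the 1411 coding genes with a promoter peak. *Chro* stood highest at 496, and *Dref* lowest at 54.6, just above the weakest peak of the whole list. Of the candidates of these genes that were not peaks, the strongest was one of *BEAF-32*, at 46.2.

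**Figure D1:**
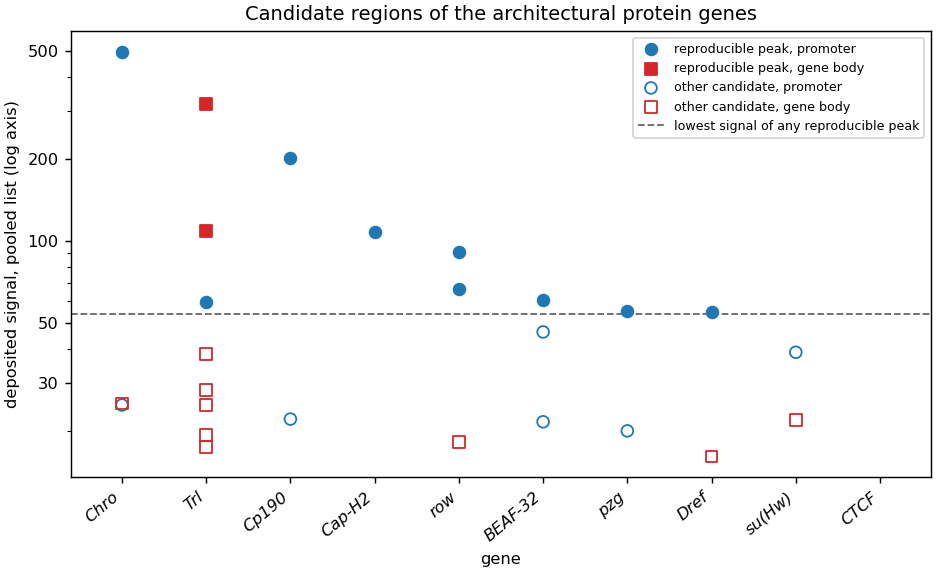
Deposited signal in the pooled list (log axis) of each of the 26 candidate regions, by gene in order of the strongest region. Filled symbols are reproducible peaks, open symbols other candidates, circles promoters and squares gene bodies, and the dashed line is the lowest peak signal of 53.8. Promoter peaks run from 496 at *Chro* to 54.6 at *Dref*, *Trl* has peaks of 319 and 109 in its gene body, and *CTCF* has no region.

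*Chro* had one of the strongest peaks of the genome. The gene, which encodes the chromodomain protein Chro (Chromator), lies on 3L:22873702-22878984, minus strand, in dm6 coordinates. Its peak at 3L:22878749-22879043 had a signal of 496 and rank 9 in the pooled list, and 99.5% of the reproducible peaks were weaker. It ranked 7 in replicate 2 (signal 187) and 10 in replicate 4 (signal 306), so both libraries placed it near the top. The summit lay in the 5′ UTR, 78 bp downstream of the outermost of 3 annotated starts. The divergent neighbour *Ssl1*, which encodes a subunit of the transcription factor TFIIH, starts 183 bp from the summit. Further candidates in an intron and at the innermost start had signals of 25.2 and 24.9 and ranked 8776 and 9039, deep in the list. A stretch of 30 bp by the strong summit (3L:22878879-22878908, plus strand), read like the later sequences from the RefSeq copy of the dm6 assembly, is shown because this is the strongest site on these genes. Capitals here and later mark CGATA or the word AAAATAT, on either strand, and a stretch of a UTR is kept to 30 bp around such a word.
Chro: gtgtattgcctgtCGATAgctttaaactaa

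*Cp190* had a strong peak that ranked alike in both libraries. The gene lies on 3R:15270432-15275241, minus strand. Its peak at 3R:15275162-15275557 had a signal of 202 and rank 106, and ranked 106 in replicate 2 (signal 78.2) and 120 in replicate 4 (signal 123). The summit lay 119 bp upstream of the outer start of *Cp190* and 162 bp from the start of the divergent gene CG4338, thus between the starts. A second candidate, with its summit 39 bp from the CG4338 start, had a signal of 22.1 and rank 12563, shared 195 bp with the peak and fell within the same region of replicate 2. The summit, shown with 50 bp on each side because it is the most AT-rich of the 11 peaks (3R:15275310-15275410, plus strand), held 20.8% GC.
Cp190: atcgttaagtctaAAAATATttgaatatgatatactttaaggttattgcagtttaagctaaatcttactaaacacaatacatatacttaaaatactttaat

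*pzg*, which encodes the zinc finger partner of Chro, had a peak near the lower end of the list. The gene lies on 3L:21286099-21290310, plus strand, and its peak at 3L:21285678-21286073 had a signal of 55.1 and rank 1790. It ranked 2398 in replicate 2 (signal 17.9) and 1942 in replicate 4 (signal 34.9). The summit lay 223 bp upstream of the start of *pzg* and 86 bp from a start of CG12974 on the opposite strand, so it lay within the transcribed part of the neighbour and nearer to its start. A weaker candidate 263 bp away, 40 bp downstream of the start, had a signal of 20.0. In replicate 4 a single region held both summits, with its own summit 123 bp from that of the peak. That summit was 100 bp from the start of *pzg*, thus between the starts of *pzg* and CG12974. Replicate 2 had its summit 7 bp from the peak's and no region over the other one.

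*Cap-H2*, the condensin II gene, lies on 3R:10761310-10766756, plus strand, and had 1 candidate region, a reproducible peak. It lay at 3R:10760906-10761301 with a signal of 108 and rank 463, and 75.3% of the peaks were weaker. The ranks were 536 in replicate 2 (signal 38.4) and 563 in replicate 4 (signal 63.8), close together, and the summits were 1 and 2 bp from the pooled summit. The summit lay 206 bp upstream of the outer start of *Cap-H2* and 72 bp from that of *MED7*, a Mediator subunit gene on the opposite strand. The summit with 50 bp on each side (3R:10761054-10761154, plus strand) is set beside 30 bp from the summit window of *pzg* (3L:21285897-21285926, plus strand), as a stronger and a weaker peak near divergent starts.
Cap-H2: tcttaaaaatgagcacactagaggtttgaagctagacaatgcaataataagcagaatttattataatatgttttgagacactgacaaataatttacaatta
pzg: ttatttcaagtaaataattacgtTATCGta

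*Trl*, the GAGA factor gene, carried more peaks than any other of the 10, and its strongest was away from the promoter. The gene spans 13.1 kb at 3L:14747929-14761049, minus strand, with 4 annotated starts and 8 candidate regions, 3 of them reproducible peaks. Of coding genes of 10 kb or more, 3.24% held at least 3 peaks. The strongest, at 3L:14759378-14759668, had a signal of 319 and rank 32 and lay in an intron, 1561 bp downstream of the 5′-most start and 1526 bp upstream of the next start. It ranked 26 in replicate 2 (signal 126) and 36 in replicate 4 (signal 194), with summits 6 and 4 bp from the pooled one. It stood above the *Cp190* promoter peak and below that of *Chro*.

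The other peaks of *Trl* lay downstream of its inner starts and were weaker. An intronic peak at 3L:14755949-14756344 had a signal of 109 and rank 453, and ranked 672 in replicate 2 and 383 in replicate 4. Its summit lay 1189 bp downstream of the innermost start. The promoter peak at 3L:14756986-14757381, with its summit in the 5′ UTR 152 bp downstream of that start, had a signal of 59.4 and rank 1581. It ranked 826 in replicate 4 (signal 54.5), and its summit lay in no region of replicate 2, as held for 1.66% of all reproducible peaks. The promoter peak of *Trl* was thus listed in 1 library, and both intronic peaks in each. The 5 remaining candidates had signals from 17.5 to 38.4 and were spread over introns, coding sequence and the 3′ UTR. The summit windows held 28.7% and 31.7% GC at the intronic peaks and 44.6% at the promoter peak, and none of the marked words. Those of the intronic peaks (3L:14759438-14759538 and 3L:14756097-14756197, plus strand) are given because they are the sites away from a start.
Trl intron, signal 319: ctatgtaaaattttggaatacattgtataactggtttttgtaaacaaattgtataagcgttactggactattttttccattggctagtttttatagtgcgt
Trl intron, signal 109: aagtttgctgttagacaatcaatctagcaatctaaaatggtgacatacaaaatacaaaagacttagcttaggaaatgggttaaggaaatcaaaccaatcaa

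**Figure D2:**
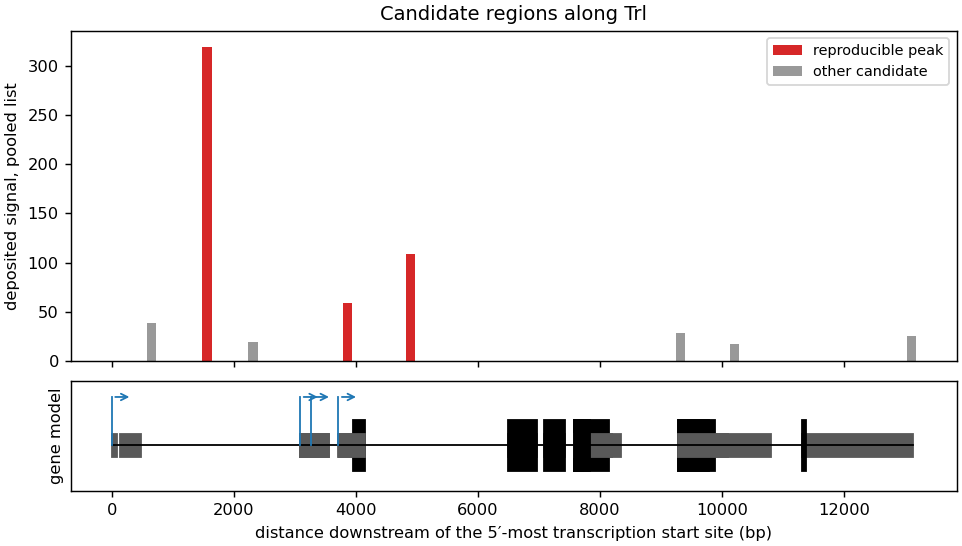
Deposited signal of the 8 candidate regions of *Trl* (bars, red for reproducible peaks and grey for others) against distance from the 5′-most start, above the gene model with exons in grey, coding sequence in black and starts as blue arrows. The tallest bar, 319, stands at 1561 bp, between the outermost and the inner starts, and the promoter peak of 59.4 at 3865 bp.

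*Dref*, whose product binds TATCGATA at promoters of replication and growth genes, had the weakest peak of the set. The gene lies on 2L:9964147-9967229, minus strand. The peak at 2L:9967026-9967421 had a signal of 54.6 and rank 1828, and only 2.35% of the peaks were weaker. It ranked 2665 in replicate 2 (signal 17.0) and 1889 in replicate 4 (signal 35.6), so that it was among the 1872 strongest regions of neither. The summit lay 5 bp downstream of the start of *Dref* and 89 bp from that of the ribosomal protein gene *RpL13*, which is divergent. A candidate in the 3′ UTR had a signal of 16.1 and no region in replicate 2. The summit window is, at 46.5% GC, the most GC-rich of the 11 peaks, and 30 bp of it (2L:9967229-9967258, plus strand) are shown because they hold CGATA.
Dref: ttgcatcaccaatCGATAgctggggaaatt

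*su(Hw)* and *CTCF*, which encode DNA-binding insulator proteins, had no reproducible peak. At *su(Hw)* (3R:14304455-14308589, minus strand) a candidate at 3R:14308759-14309154 had a signal of 38.9 and rank 3294, below the weakest peak. It ranked 3221 in replicate 2 (signal 15.6) and 3483 in replicate 4 (signal 26.4), close together. The summit lay 368 bp upstream of the start of *su(Hw)* and 132 bp from that of the divergent *Polr2I*, a subunit gene of RNA polymerase II. A candidate in coding sequence had a signal of 21.9. The nearest reproducible peak lay 18360 bp from the start. *CTCF* (3L:7353578-7356713, minus strand) had no pooled candidate, the nearest lying 3753 bp from its start with a signal of 31.0, and the nearest reproducible peak lay 27695 bp away. Replicate 2 alone had 2 regions at the *CTCF* promoter, the stronger ranking 6085 with a signal of 12.1, and replicate 4 had none. The *su(Hw)* summit (3R:14308907-14309007, plus strand), at a site outside the list of peaks, is printed because it is the most AT-rich of the promoter summits of these genes.
su(Hw): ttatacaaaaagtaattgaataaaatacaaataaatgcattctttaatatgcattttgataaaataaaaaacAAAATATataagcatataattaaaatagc

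*BEAF-32* had a peak at its inner starts and a second candidate at the outer one, and the replicates ranked them in opposite order. The gene lies on 2R:14770469-14772630, plus strand, with 3 starts. The peak at 2R:14770913-14771308 had a signal of 60.4 and rank 1537, with its summit in the 5′ UTR between the inner starts, 195 bp downstream of one and 190 bp upstream of the next. It ranked 6412 in replicate 2 (signal 11.8) and 1553 in replicate 4 (signal 39.5). The candidate at 2R:14770202-14770597, with its summit 69 bp upstream of the outer start, had a signal of 46.2 and rank 2398. It ranked 967 in replicate 2 (signal 28.9) and 7061 in replicate 4 (signal 20.4). Which of these regions was stronger thus depended on the library, with 1 library on each side. The antisense gene asRNA:CR42254 has starts 184 bp from the peak's summit and 130 bp from the candidate's. A weaker candidate 42 bp downstream of the innermost start had a signal of 21.6 and no region in replicate 2.

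*row* had a pair of overlapping peaks upstream of its only start. The gene lies on 2R:15206527-15213634, minus strand. The peak at 2R:15213504-15213899 had a signal of 90.6 and rank 688, with its summit 68 bp upstream of the start. The peak at 2R:15213704-15214099 had a signal of 66.5 and rank 1296, with its summit 268 bp upstream. The summits were 200 bp apart and the peaks shared 196 bp, and 53 of all 1872 peaks overlap the next one in this way. Replicate 4 had separate regions for the 2 summits, ranked 468 (signal 69.8) and 862 (signal 53.1), while replicate 2 had 1 region over both, ranked 2172 (signal 18.8). *row* and *Trl* were the 2 of the 10 genes with at least 2 peaks, as were 1.91% of coding genes. An intronic candidate had a signal of 18.2 and no region in replicate 2.

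Of the 10 peaks ranked in both replicates, most ranked alike, and those of *BEAF-32* and *row* differed most. The promoter peak of *Trl* ranked 826 in replicate 4 and had no region in replicate 2. The list of each replicate holds 30000 regions, so that ranks refer to lists of equal length, while their signal scales differ. At *Chro*, *Cp190*, *Cap-H2* and both intronic sites of *Trl*, the rank in replicate 2 was 0.70 to 1.75 times that in replicate 4. The weakest peaks, *Dref* and *pzg*, fell inside that range at 1.41 and 1.23, and the weaker peak of *row* was at 2.52. Both peaks of *row* were matched to the same region of replicate 2, so their ratios are not independent. The 5 peaks of *Chro*, *Cp190*, *Cap-H2* and the *Trl* introns were among the 1872 strongest regions of both replicates, as were 68% of all reproducible peaks. Of the 11 peaks, 9 were among the 1872 strongest of replicate 4, against 87.4% of all peaks, and 5 among those of replicate 2, against 79.3%. The peaks of *BEAF-32* and the stronger one of *row* ranked 4.13 and 4.64 times better in replicate 4, and a ratio of at least 4 in that direction held for 8.06% of the 1837 peaks ranked in both. The libraries name different protocol documents, so protocol and replicate cannot be told apart.

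**Figure D3:**
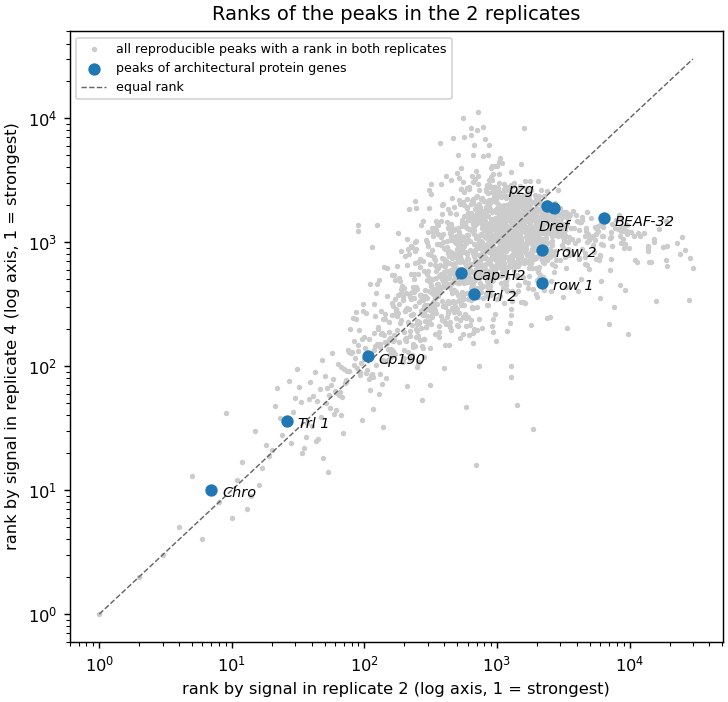
Rank by signal in replicate 4 (vertical) against that in replicate 2 (horizontal) (log axes, 1 is the strongest), with the 10 ranked peaks of the architectural protein genes in blue over all 1837 peaks ranked in both replicates in grey. Numbers after *Trl* and *row* order the peaks of a gene by signal, and both peaks of *row* take their replicate 2 rank from the same region. *Chro*, *Trl* 1, *Cp190*, *Cap-H2*, *pzg* and *Dref* lie near the line of equal rank, and *BEAF-32* and *row* 1 far below it, ranked better in replicate 4.

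Most of the promoter peaks lay close to the start of a second gene. A start on the opposite strand and at most 1000 bp upstream of an own start was found for 8 of these 10 genes, compared with 39.6% of coding genes in general and 72.2% of the 1411 coding genes with a promoter peak. The 8 include *su(Hw)*, which had no peak, and are near the share of genes with a promoter peak. The neighbours were *Ssl1* at 105 bp from a start of *Chro*, *RpL13* at 84 bp from *Dref*, CG12974 at 137 bp from *pzg*, *MED7* at 278 bp from *Cap-H2*, CG4338 at 281 bp from *Cp190*, *Polr2I* at 500 bp from *su(Hw)* and *Mgat4a* at 979 bp from *Trl*. At *BEAF-32* the partner was the antisense gene asRNA:CR42254, with a start 6 bp from one of its own. *row* and *CTCF* had no such neighbour. The pooled summits of *Cp190*, *Cap-H2* and the *su(Hw)* candidate lay between the divergent starts, those of *Chro* and *Dref* just inside the gene, and that of *pzg* inside its neighbour. In replicate 4 the summit of *pzg*, and in replicate 2 that of *Dref*, also lay between the starts. At *Cap-H2*, *pzg* and the candidate of *su(Hw)* the pooled summit was nearer to the neighbour's start, and at *Chro*, *Cp190* and *Dref* nearer to the gene's own. The pooled summit of the *BEAF-32* peak lay about as far from a start of asRNA:CR42254 (184 bp) as from the nearest own start (190 bp). In replicate 2 the summit of the *su(Hw)* candidate was nearer to *su(Hw)*. A peak this close to a pair of starts cannot be given to 1 of the genes from these data. At *Trl* the *Mgat4a* start was not within 1000 bp of any of the 3 peaks, and CG42507 shares a start with *Trl*.

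**Figure D4:**
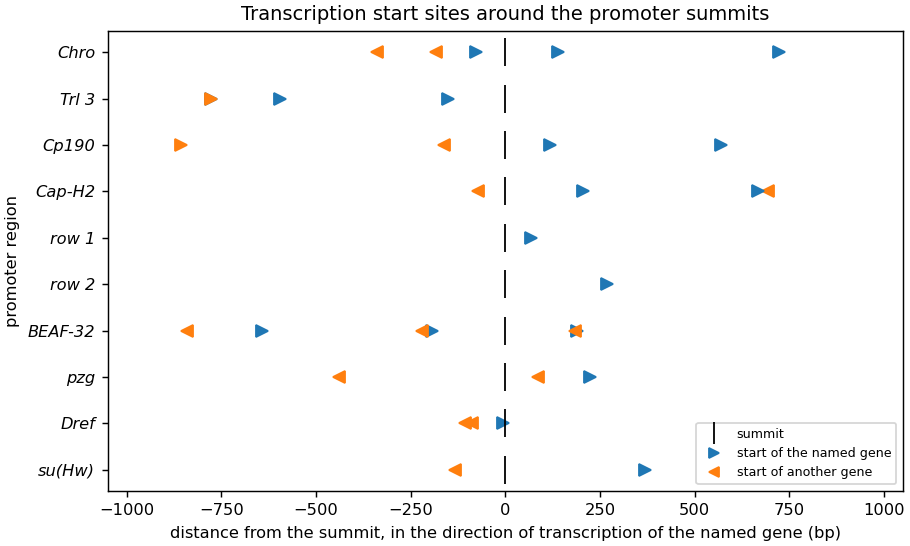
Annotated transcription starts within 1000 bp of each promoter summit, with the summit at 0 and distance in bp along the direction of transcription of the named gene. Blue triangles are starts of the named gene, orange ones those of other genes, and a triangle points the way its gene is transcribed. The 9 promoter peaks and the *su(Hw)* candidate are shown, and starts of both colours flank the summits of *Cp190* and *Cap-H2*, while *row* has its own start alone.

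The summits were poor in G and C, as at peaks in general. The summit windows (50 bp on each side of the summit) of the 11 peaks had a median GC content of 31.7%, and their flanks, equally wide windows with their centres 300 bp away, a median of 46.5%. The medians over all 1872 peaks were 31.7% at summits and 44.6% in flanks, and the 6634 promoter candidates that are not peaks had 39.6% and 42.1%. GC content was lower at the summit than in the flanks at 10 of the 11 peaks, against 82.8% of all peaks. The difference was largest at *Cp190*, with 20.8% at the summit and 49.0% in the flanks, and *Cap-H2*, with 26.7% and 53.5%. At *Chro*, the strongest peak of the set, it ran the other way, with 31.7% at the summit and 28.2% in the flanks. At *Dref* the values were 46.5% and 47.0%. The *su(Hw)* candidate had 14.9% at the summit and 45.5% in the flanks, a larger gap than at any of the peaks.

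**Figure D5:**
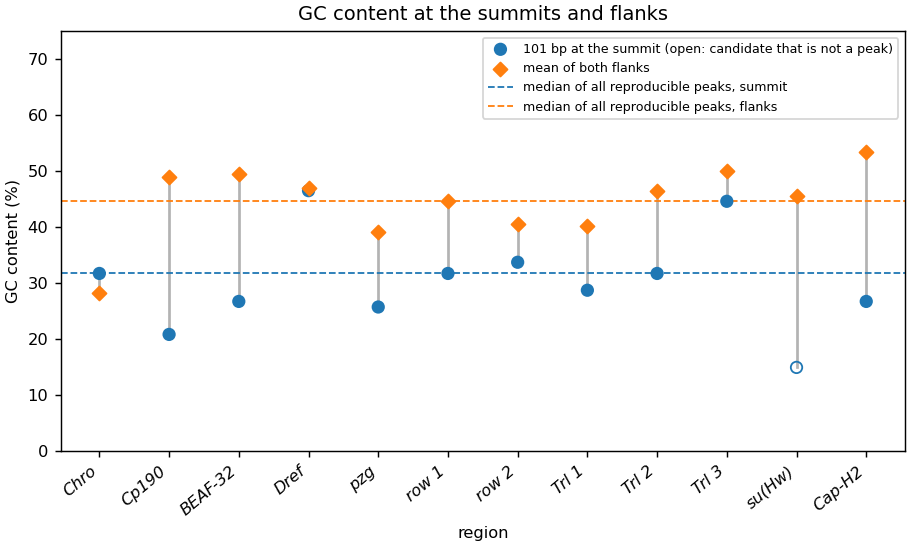
GC content (%) of the window of 50 bp on each side of each summit (blue circles) and the mean of both flanks (orange diamonds), for the 11 reproducible peaks and the *su(Hw)* candidate (open circle). Dashed lines are the medians over all 1872 peaks, 31.7% and 44.6%. The summit lies below the flanks at all but *Chro*, and closest to them at *Dref*.

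Words known from architectural proteins were searched on both strands in the same summit windows. CGATA, the word of BEAF-32 and the core of the Dref element, was present at 4 of the 9 promoter summits, those of *Chro*, *Dref*, *pzg* and the weaker one of *row*, against 15.5% of the 1047 promoter peaks and 18.1% of the 6634 other promoter candidates. The full Dref element TATCGATA, which contains CGATA, was in none, against 2.20% of promoter peaks. None held GAGAG, the GAGA word (9.46%), GGTCACA of M1BP (1.15%), GGTGGCG (1.24%) or GAGGGCG (0.287%), both parts of the CTCF site, TGCATAC, part of the su(Hw) site (1.53%), or the E-box CACGTG (1.62%). TATAAA was present at *BEAF-32* and the stronger peak of *row* (2 of 9, against 26.3%). The word AAAATAT was the 7-base word that differed most between summits and flanks in the other 1861 reproducible peaks, at 17.8% of summits and 5.94% of flank windows. It was found at 3 of the 9 promoter summits, at *Cp190* and both of *row*, against 18.4% of promoter peaks and 10.7% of other promoter candidates, and also at the *su(Hw)* candidate. The summits of *row* are 200 bp apart, so their windows do not overlap, but they share 1 promoter. With 9 summits these counts are a description, and a word that is not in the window says nothing of the factor.

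Peaks were also found at some other architectural genes. A list of 32 further genes held 6 with a reproducible peak at the promoter and 20 with a candidate there, beside the 10.1% and 46.5% of all coding genes. *M1BP* and *pita* were known as occupied when this list was made. Among 11 genes of other DNA-binding factors, *M1BP*, whose product binds a core promoter element, had a signal of 93.7 and ranked 496 in replicate 2 and 844 in replicate 4. Its summit lay 306 bp from its own start and 87 bp from that of another gene. *pita*, a ZAD zinc finger insulator gene, had 66.7 and ranked 9249 and 974, so that it too was weak in replicate 2. Among 10 genes of partner proteins, the nucleoporin gene FBgn0039120 was the only one with a promoter peak (signal 122, ranks 460 in replicate 2 and 331 in replicate 4). Condensin genes had a promoter peak in 3 of 6 cases, *Cap-D2* (signal 90.2), *SMC2* (78.7) and *barr* (57.8), beside *Cap-H2* above. The summits at these 3 and at FBgn0039120 were nearer to their own start, but 131 to 200 bp from that of another gene. Such peaks, like that of *M1BP*, cannot be given to 1 gene from these data. None of the 5 genes of cohesin and its loader had a promoter peak, and their promoter candidates did not exceed a signal of 22.2.

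Of the listed genes without a promoter peak, the highest promoter candidates were those of *JIL-1* (signal 50.1), a histone kinase that interacts with Chro, *l(3)mbt* (37.2), *HP1c* (33.9), *fs(1)h* (33.4) and *Clamp* (32.5). The summits at *l(3)mbt* and *fs(1)h* lay 487 and 169 bp from their own starts, and 55 and 40 bp from the start of another gene. Those of *JIL-1*, *HP1c* and *Clamp* were nearer to their own. The *Clamp* region ranked 2351 in replicate 2 and 25882 in replicate 4. *JIL-1*, which spans 14.4 kb, had 3 reproducible peaks in its gene body, up to a signal of 177. Of coding genes of 10 kb or more, 3.24% held at least 3 peaks. *mod(mdg4)*, a gene of 26.6 kb for a BTB insulator protein, named here after its values were seen, had 1 with a signal of 150. The peaks of *JIL-1* and *mod(mdg4)*, like the intronic sites of *Trl*, lay outside the promoter window. CG31388 itself had no candidate region at its promoter or in its gene body, and the nearest reproducible peak lay 11159 bp from its start.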

How the data were processed

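ChIP-seq of GFP-tagged CG31388 was done in 2 libraries of whole embryos, with DNA fragments of 200 to 800 bp per the labels. The authors deposited peak lists in narrowPeak format on dm6 (and on dm3, not used here). Per the deposited read-me files, each replicate's regions derive from that library's alignments plus 1 control file, pooled regions from both libraries plus that same control, and reproducible peaks from all of these lists by an irreproducible discovery rate (IDR) threshold. The sources used here name no aligner, no peak caller and no value of that threshold. The signal of each region is the enrichment the authors deposited, on an unstated scale, so it was compared within a list only, and replicates by rank. Read depth is unknown, so no counting error can be given.

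Summits were placed with Ensembl release 115 genes, transposable elements left out, on the assembly of dm6 (all region ends lay within the arms), with Python 3.11.15, pandas 2.3.3 and numpy 2.4.6. A region matched a replicate when its summit lay in a region of that replicate. A replicate region that held 2 pooled summits was matched to both. Sequences were read from the RefSeq copy of the assembly, and words of 7 bases were counted by presence. Assignment was tested on simulated data. Members and lists were chosen with earlier results of these data known. Named genes were all members, the nearest other start and divergent genes at their peaks, listed genes with a promoter peak and the 5 strongest without one, and CG31388. No test was made, since there is 1 group with 2 libraries.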

Additional observations from a re-analysis of the deposited data

How the results depend on the processing

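Promoter windows of 250 and 1000 bp, or any overlap of 1 bp with the window, left the same 8 genes with a promoter peak, beside 1096, 1600 and 1492 coding genes. At 250 bp *M1BP* lost its promoter peak and *su(Hw)* its promoter candidate, leaving 5 further architectural genes and 8 of the 10. Among the 936 strongest peaks 4 of the genes had one (*Chro*, *Cp190*, *Cap-H2* and *row*), as did 769 coding genes. On the 1872 strongest regions of 1 library alone, the number was 4 on replicate 2 (*Chro*, *Cp190*, *Cap-H2* and *BEAF-32*) and 6 on replicate 4 (without *Dref* and *pzg*), while it was 1378 and 1382 over coding genes. *BEAF-32* was kept in replicate 2 by its region at the outer start, not by the reproducible peak. The further architectural genes with a promoter peak were 5 on replicate 2 and 6 on replicate 4. On replicate 2 *pita* and *barr* dropped out and *JIL-1* came in, while replicate 4 kept the same genes. A candidate region lay at the promoter of 10 genes on the list of replicate 2, *CTCF* included, and of 9 on that of replicate 4, beside 45.8% and 46.6% of coding genes. Windows of 100 bp on each side of the summit held CGATA at 6 and AAAATAT at 4 of the 9 promoter summits, against 32.1% and 32.7% of all promoter peaks. With a shared overlap of at least 50%, 9 of the 11 peaks had a region in replicate 2, against 10 by the summit. No paired analysis was possible because there is 1 group. Read depth is unknown and the authors' signal scale is not stated, so weak regions such as those of *Dref*, *pzg* and *su(Hw)* cannot be given an error.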
